A study of Mus musculus with 19 samples.

Results

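The net change from the early fetal gonad to the newborn ovary of CD-1 mice, an outbred wild-type strain, was measured by setting 3 arrays of postnatal day 2 (pnd2) against 3 arrays of gestation day 11 (gd11). The members were taken by their titles, and make up 6 of the 19 arrays of the series. The other arrays hold ovaries of gd12, gd14, gd16 and gd18, with 3 arrays each, and 1 pool of whole newborn animals. All compared samples are labelled female and wild-type and received no treatment. A pool size of 3 is recorded for the gd11 samples and none for pnd2, although the design note of the series has 1 animal behind every sample. That note also gives every sample its own dam, except that gd11 samples 18 and 19 shared one. Organs were excised whole and snap frozen. The tissue was recorded as gonad together with mesonephros for samples 16 and 18 of gd11, as gonad for sample 19 of gd11 and as ovary for pnd2. Stage, pool size and dissected tissue therefore cannot be told apart. The p-values rest on the spread between samples within a stage, with 1 estimate for each probe set shared by the 18 ovary arrays.

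At gd11 the mouse gonad is a ridge of somatic precursors on the mesonephros, the transient kidney, into which primordial germ cells have just moved. Female germ cells then divide, enter meiosis, lie together in cysts and arrest late in meiotic prophase. Around birth the cysts break down, and each surviving oocyte is enclosed by flat pregranulosa cells as a primordial follicle and begins to make the zona pellucida and the proteins that the later embryo will use.

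Array signals have arbitrary units and were compared as log2(signal + 31), so that changes of genes with low signal are understated. In each row of values below, the gd11 arrays come in the order of samples 16, 18 and 19 and the pnd2 arrays in the order of samples 1, 2 and 3. Log2 changes are pnd2 minus gd11 with the standard error of the limma fit (n = 3 arrays a stage), and a gene rose or fell when its adjusted p was under 0.05. Bulk tissue was measured, so that fewer cells of a type and less RNA per cell cannot be told apart.

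Array quality measures differed between the stages. The Gapdh 3′ to 5′ ratio, which grows as RNA or its copies are shortened, ran from 2.99 to 3.28 at gd11 and from 5.07 to 5.41 at pnd2 without overlap, while the beta-actin ratio overlapped. The share of probe sets above the filter was 47.9 to 48.2% at gd11 and 49.0 to 50.9% at pnd2. The part of these measures in the results was not tested. Xist signals were high and Y-linked signals low on all 6 arrays. Among the gd11 arrays, samples 18 and 19 correlated at r = 0.98 across probe sets, and sample 16 with either at 0.957 or 0.958. The gonad markers Wt1, Gata4 and Nr5a1 were measured on every gd11 array, with mean signals of 1255, 213 and 364. Many results that rest on sample 16 are given with and without it, but not all. Examples given only with it are Idi1, Irx3 and Sox9, each also highest at gd11 on sample 16.

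Of 26431 tested probe sets, 11089 differed between pnd2 and gd11, which is 42% of them. By gene, 5892 of 12592 differed (46.8%), of which 3309 were higher at pnd2 (26.3% of all genes) and 2583 lower (20.5%). The arrays of the stages did not overlap for 6965 of the 12592 genes, and 5626 of these were called. Large rises outnumbered large falls: 197 genes rose and 71 fell by over 3 on the log2 scale, and 42 rose and 9 fell by over 5. The balance of small changes depended on the scaling. The higher share of called genes was 56.2% as deposited and 43.8% when arrays were scaled to their medians, with which the median change of all genes moved from 0.04 to -0.11. Small changes are therefore read only against that shift. Gene lists are described by counts of tested members. Where no share of all genes is printed, the counts are read against the 26.3% higher and 20.5% lower given above. At most 9 members of a list with a probe set did not pass the filter on low signal. A member that is low at 1 end could pass only through the stages where it is high, so that a high share of called members in such a list is partly set by the filter.

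**Figure D1:**
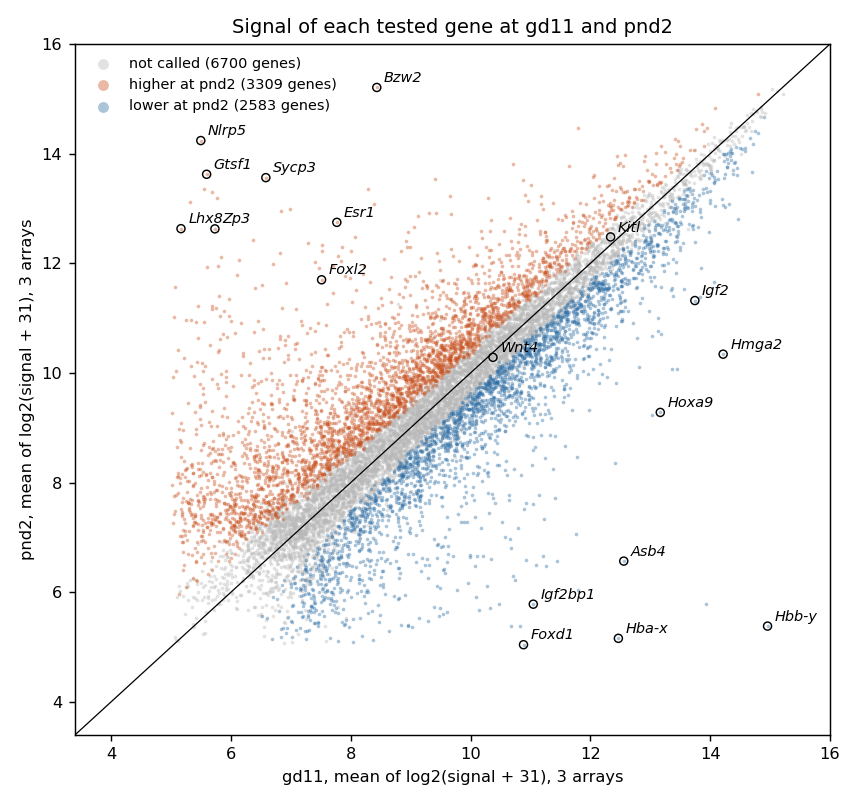
Mean log2(signal + 31) of each tested gene at gd11 (horizontal axis) and at pnd2 (vertical axis), 3 arrays a stage, with called genes coloured and the line of equal signal drawn. The 3309 genes higher at pnd2 reach farthest from the line among genes with very low gd11 signal, and Hbb-y lies farthest below it.

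The largest rise belonged to Nlrp5, a part of the subcortical maternal complex that the early embryo needs. Its signal was 2.35, 20.2 and 23.1 at gd11 and 20627, 20367 and 17103 at pnd2, a log2 change of 8.74 ± 0.32 (adjusted p = 1.31e-12). The largest fall belonged to Hbb-y, an embryonic beta globin, whose signal was 32517, 31052 and 31767 at gd11 and 2.10, 18.0 and 13.8 at pnd2, a change of -9.57 ± 0.26 (adjusted p = 1.64e-14). The Hbb-y probe set is of a kind that can bind related transcripts, and all 3 of its tested probe sets fell. For both genes the stages lay at opposite ends of the range of array signals. Of the 15 largest rises, Nlrp5, Nlrp4f, Nlrp14, Padi6, Lhx8, Zp2 and Zp3 are on the oocyte lists, Gtsf1 and Mael on the germ cell and piRNA list and Sycp3 on the meiotic list. Trp63, Bzw2, Dcpp1, Cst12 and Slc26a7 are on none of the lists.

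**Figure D2:**
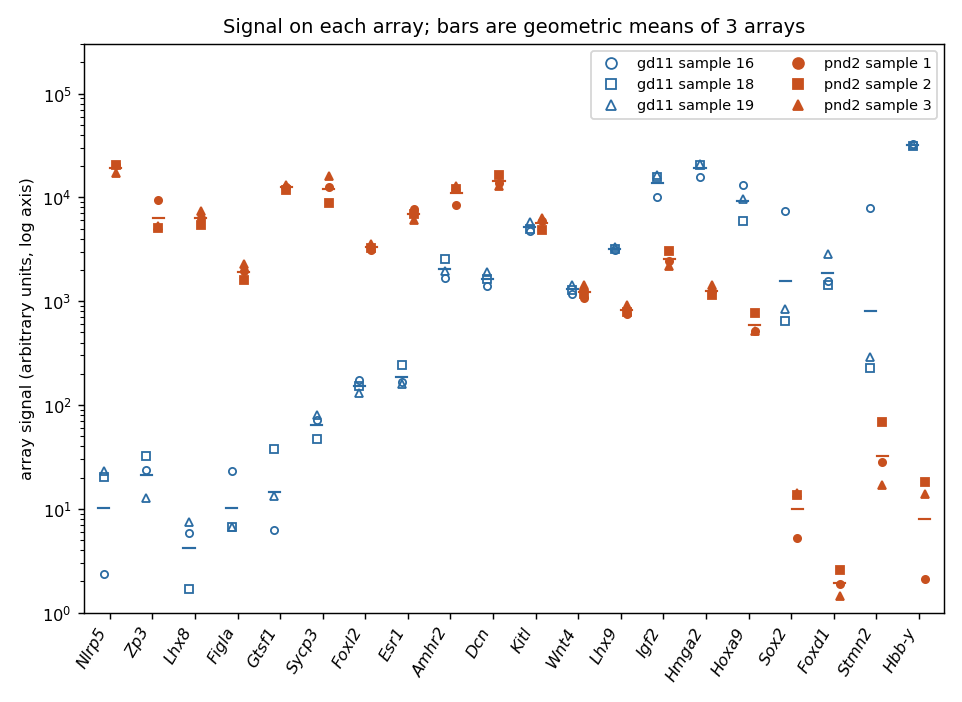
Array signal (log axis) of 20 named genes on each gd11 array (open blue symbols) and each pnd2 array (filled orange symbols), with bars at the geometric mean of 3 arrays. The stages are far apart for the oocyte genes and Hbb-y, overlap for Kitl and Wnt4, and gd11 sample 16 stands above the other gd11 arrays for Sox2 and Stmn2.

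Transcription factors of the oocyte were the group with the highest median change. All 6 tested members rose, with a median of 5.29 beside 0.04 over all genes, and 1 further entry has no probe set used here. Lhx8, a LIM homeobox factor of the primordial follicle oocyte, read 5.90, 1.70 and 7.43 at gd11 and 6258, 5464 and 7359 at pnd2, a change of 7.46 ± 0.34. Figla, a basic helix-loop-helix factor known to switch on the zona pellucida genes, read 23.3, 6.63 and 6.75 at gd11 and 1948, 1614 and 2281 at pnd2, a change of 5.52 ± 0.33. For both genes every gd11 array was near the floor and the 3 pnd2 arrays lay close together. Sohlh1, a related factor upstream of Lhx8, rose by 5.54 ± 0.30, and the homeobox factor Nobox by 5.05 ± 0.51. Figla was already at 334 (mean of 3 arrays) at gd14 and at 1712 at gd18, whereas Nobox was at 11.2 at gd14 and 698 at gd18.

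The zona pellucida, the glycoprotein coat of the egg, was represented by its 3 classical genes, and each rose. Zp3, a filament protein of the coat, read 23.5, 32.1 and 12.8 at gd11 and 9389, 5042 and 5275 at pnd2, a change of 6.90 ± 0.31 (adjusted p = 1.13e-11). Zp2 read 51.2, 13.2 and 14.0 at gd11 and 11298, 9131 and 7939 at pnd2, a change of 7.42 ± 0.33. Zp1, which links the filaments of the coat, read 50.9, 42.2 and 12.2 at gd11 and 3280.3, 2337 and 968 at pnd2, a change of 4.96 ± 0.43. At pnd2 sample 1 was highest for each of the 3 genes, and sample 3 was lowest for Zp1 and Zp2 but not for Zp3. Gdf9, an oocyte-secreted growth factor that acts on granulosa cells, read 108, 67.2 and 100.5 at gd11 and 4847, 3229 and 2050.2 at pnd2, a change of 4.72 ± 0.27. The related factor Bmp15 did not pass the filter on low signal. Its signal on the highest of 3 probe sets was 1.98, 3.44 and 1.85 at gd11 and 147, 123 and 66.4 at pnd2, with no test. Of the list, 8 of 9 tested members rose and none fell, with a median of 3.46. Without the filter, 9 of 11 rose.

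Factors stored by the oocyte for the embryo rose together. Of 28 tested members 28 rose, with a median of 4.04, but 9 further members with a probe set did not pass the filter. Without the filter 31 of 37 rose and none fell, with a median of 3.19. Padi6, a peptidylarginine deiminase of the oocyte's cytoplasmic lattices, read 14.4, 49.1 and 6.70 at gd11 and 13106, 10044 and 7771 at pnd2, a change of 7.61 ± 0.31. Nlrp14 read 23.9, 3.15 and 3.27 at gd11 and 10272, 8612 and 7851 at pnd2 and changed by 7.79 ± 0.34. Nlrp4f read 27.9, 5.10 and 16.7 at gd11 and 11718, 8505 and 11296 at pnd2 and changed by 7.80 ± 0.41. Both belong to the germ cell branch of the NLRP family. For each of these genes every pnd2 array stood far above every gd11 array.

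Promoter windows of 4 genes from these groups were chosen for holding an E-box, the kind of site that basic helix-loop-helix factors such as Figla and Sohlh1 bind. The letters CACCTG (read as CAGGTG on the other strand) were searched on both strands of the RefSeq windows of build GRCm38.p6, from 250 bases before to 50 after the start of each gene. They are in 20.2% of all 32851 windows and in 21.1% of the tested genes with a window. They were found in 3 of 5 oocyte transcription factors with a window, in 4 of 5 zona pellucida and secreted factors, in 12 of 23 maternal-effect factors and in 8 of 25 meiotic prophase genes. The windows of Nlrp5, which has the largest rise, and of Lhx8, Nlrp4f and Gtsf1 do not hold these letters. The more general E-box CANNTG, in which N is any base and which includes CACCTG, is in 72.3% of all windows. Zp3 (chr5:135979855-135980154, plus strand) holds CAGGTG 55 bases before the start, Padi6 (chr4:140742594-140742893, minus strand) holds CACCTG 78 bases before it, Nobox (chr6:43309505-43309804, minus strand) holds the letters 137 and 50 bases before it, and Figla (chr6:86016941-86017240, plus strand) holds them 173 bases before and 9 and 22 bases after it. Capitals mark the letters, and a match is a description of the window and not a bound site.
Zp3: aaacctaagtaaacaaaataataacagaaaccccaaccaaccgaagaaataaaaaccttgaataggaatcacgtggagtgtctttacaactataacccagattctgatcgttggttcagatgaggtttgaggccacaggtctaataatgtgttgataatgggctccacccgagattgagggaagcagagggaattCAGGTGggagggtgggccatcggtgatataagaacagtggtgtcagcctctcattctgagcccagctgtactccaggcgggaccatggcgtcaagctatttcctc
Padi6: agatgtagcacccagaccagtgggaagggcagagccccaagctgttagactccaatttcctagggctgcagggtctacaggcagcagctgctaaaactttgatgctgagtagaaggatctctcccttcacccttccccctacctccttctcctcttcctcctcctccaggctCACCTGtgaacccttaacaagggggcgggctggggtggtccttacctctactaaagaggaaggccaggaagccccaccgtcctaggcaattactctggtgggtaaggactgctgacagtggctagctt
Nobox: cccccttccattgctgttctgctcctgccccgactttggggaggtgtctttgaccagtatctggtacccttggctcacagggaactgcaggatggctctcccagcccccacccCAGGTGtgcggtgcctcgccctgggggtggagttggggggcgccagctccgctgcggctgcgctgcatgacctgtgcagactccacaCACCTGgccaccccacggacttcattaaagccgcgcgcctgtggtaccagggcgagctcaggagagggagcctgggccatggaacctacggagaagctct
Figla: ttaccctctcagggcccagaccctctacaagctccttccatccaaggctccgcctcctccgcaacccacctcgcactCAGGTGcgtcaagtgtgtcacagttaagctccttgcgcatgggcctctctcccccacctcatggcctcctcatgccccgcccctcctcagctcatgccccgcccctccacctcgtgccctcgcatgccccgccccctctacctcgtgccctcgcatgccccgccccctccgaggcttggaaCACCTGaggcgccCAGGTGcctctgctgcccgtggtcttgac

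Genes of germ cell identity and of the piRNA pathway, which silences transposons in germ cells, rose in 16 of 19 tested members, with a median of 3.43. Gtsf1, a zinc finger protein of that pathway, read 6.19, 37.3 and 13.4 at gd11 and 12718, 11866 and 13225 at pnd2, a change of 8.03 ± 0.39. Mael read 12.4, 24.7 and 15.8 at gd11 and 4208, 3528 and 3959 at pnd2 and changed by 6.34 ± 0.34, and Tdrd9, a helicase of the pathway, rose by 5.37 ± 0.24. The pan-germ-cell genes had moderate gd11 signal. Ddx4, an RNA helicase of all germ cells, read 187, 109 and 267 at gd11 and 3403, 2658 and 2357 at pnd2, a change of 3.75 ± 0.38. Dazl, an RNA-binding protein that licenses germ cells for meiosis, read 298, 97.6 and 445 at gd11 and 3360.4, 2316 and 3112 at pnd2, a change of 3.43 ± 0.40. Both were higher midway than at pnd2: the means at gd14 were 8200.4 for Ddx4 and 10372 for Dazl. The median of the list was 4.20 at gd14, 4.20 at gd18 and 3.43 at pnd2.

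Meiotic prophase genes had a split outcome. Of 32 tested members 18 rose and 1 fell, with a median of 1.45. Their median change from gd11 was 4.22 at gd14, 2.94 at gd16 and 2.43 at gd18, so that the value at pnd2 is below those of gd14, gd16 and gd18. Sycp3, a protein of the chromosome axis, read 71.4, 46.8 and 79.7 at gd11 and 12565, 8735 and 15993 at pnd2, a change of 6.98 ± 0.33. Smc1b, the meiotic cohesin subunit, read 7.04, 7.48 and 7.09 at gd11 and 1962, 1536 and 2549.8 at pnd2, a change of 5.71 ± 0.43. Stra8, the gene that gates entry into meiosis, read 57.4, 26.4 and 11.5 at gd11 and 34.8, 82.8 and 39.8 at pnd2, a change of 0.43 ± 0.47 that did not pass the test (adjusted p = 0.489), although its mean was 2990.4 at gd14. Dmc1, the recombinase of meiotic strand exchange, read 68.7, 32.6 and 28.5 at gd11 and 84.1, 121 and 94.2 at pnd2, a change of 0.84 ± 0.26 (adjusted p = 0.0127), and its mean was 1561 at gd14. The call of Dmc1 was lost without gd11 sample 18, gd11 sample 19 or pnd2 sample 2, when the change was 0.75, 0.71 and 0.73 with adjusted p of 0.0501, 0.0607 and 0.0547. It was also lost when gd11 samples 18 and 19, which shared a dam, were averaged (0.73, adjusted p = 0.0546). Trip13, a checkpoint ATPase with high signal at both ends, fell by 0.60 ± 0.13.

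Of 22 genes of pluripotency and of primordial germ cells 7 rose (31.8%) and 5 fell (22.7%), close to the shares of all genes (26.3% and 20.5%), with a median of 0.01. Trim71, an RNA-binding ubiquitin ligase, read 468, 404 and 314 at gd11 and 2449, 2245 and 1525 at pnd2, a change of 2.29 ± 0.25. Lin28a, which blocks let-7 maturation, read 479.8, 293 and 306 at gd11 and 1305, 1187 and 729 at pnd2, a change of 1.49 ± 0.38. Its means at gd14 and gd16 were 878 and 61.7, so that the ends do not show the dip between them. Pou5f1, the pluripotency factor Oct4, read 148, 124 and 95.0 at gd11 and 341, 263 and 254 at pnd2, a change of 1.06 ± 0.33 (adjusted p = 0.0144). Its call was lost without gd11 sample 19 (0.92, adjusted p = 0.0588) and without pnd2 sample 1 (0.93, adjusted p = 0.059). Prdm14, a factor of primordial germ cell specification, read 150.3, 95.2 and 205 at gd11 and 17.6, 8.05 and 11.6 at pnd2 and fell by 2.02 ± 0.34. Sox2 read 7372, 641 and 833 at gd11 and 5.29, 13.5 and 14.2 at pnd2, and gd11 sample 16 stood far above the other gd11 arrays. Its change was -5.28 ± 0.60 with that array and -4.19 without it (adjusted p = 1.11e-07).

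Somatic genes of the gonad and of the granulosa lineage rose in 19 of 27 tested members and fell in 2, with a median of 1.38. Foxl2, a forkhead factor that holds the granulosa fate, read 175, 152 and 130.2 at gd11 and 3113, 3219 and 3568 at pnd2, a change of 4.19 ± 0.23 (adjusted p = 1.01e-10). The values within each stage lay close together and the stages did not overlap. Inha, the inhibin alpha subunit, read 391, 643 and 496 at gd11 and 6174, 6667 and 6580.3 at pnd2, a change of 3.61 ± 0.19. Amhr2, the receptor of anti-Müllerian hormone, read 1683, 2565 and 1959 at gd11 and 8492, 12159 and 12931 at pnd2, a change of 2.42 ± 0.24, from a signal that was already clear at gd11. Fst, the activin-binding protein follistatin, read 761, 616 and 756 at gd11 and 3277, 2989 and 3480.3 at pnd2, and its means at gd14 and gd16 (5815 and 5571) lay above pnd2. Nr5a2, a nuclear receptor of granulosa cells, rose by 2.87 ± 0.25, and Irx3 by 2.78 ± 0.43.

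Genes that mark the gonad from its start rose by less than Foxl2 and Inha did. Wt1, needed to form the gonadal ridge, rose by 1.12 ± 0.19, Gata4 by 1.38 ± 0.20 and Nr5a1 by 0.92 ± 0.26. Wnt4, a signal of ovarian fate, read 1174, 1284 and 1444 at gd11 and 1072, 1163 and 1442 at pnd2, a change of -0.09 ± 0.19 that did not pass the test (adjusted p = 0.742), and its stages overlapped. Lhx9, a LIM homeobox factor of the early ridge, read 3109, 3203 and 3323 at gd11 and 760.1, 785 and 926 at pnd2 on the probe set with the highest mean, a change of -1.93 ± 0.20. A second tested probe set with similar mean gave -0.68 ± 0.22 (adjusted p = 0.0172), and the other 2 did not pass the test. Without any 1 of the gd11 arrays this second probe set represented the gene, with changes from -0.72 to -0.65.

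Steroid and hormone receptor genes rose in 7 of 11 tested members (63.6%, beside 26.3% of all genes) and fell in 1 (9.09%, beside 20.5%). Without gd11 sample 16, 7 rose and none fell. Against a threshold of 2-fold, 2 rose and none fell. Esr1, estrogen receptor alpha, read 166, 244 and 160.2 at gd11 and 7657, 6966 and 6004 at pnd2, a change of 4.98 ± 0.29 (adjusted p = 2.07e-10). Its mean was 687 at gd12, 1507 at gd14 and 4628 at gd16, and with 4316 at gd18 the signal did not grow further before birth. Hsd3b1, which makes progesterone from pregnenolone, read 93.0, 95.7 and 89.6 at gd11 and 919.7, 912 and 2292 at pnd2, a change of 3.37 ± 0.27, with pnd2 sample 3 well above the other 2. Esr2 rose by 1.60 ± 0.36 and Hsd17b1, which makes estradiol, by 1.45 ± 0.37, both from very low gd11 signal.

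The Kit receptor and the PI3K pathway, which govern whether a primordial follicle rests or grows, rose in 9 of 20 members, and none fell. The share that rose was 45%, beside 26.3% of all genes. Kit, carried by the oocyte, read 652, 771 and 1038 at gd11 and 4578, 4031 and 4789 at pnd2, a change of 2.42 ± 0.20 (adjusted p = 2.5e-08). Its ligand Kitl, made by somatic cells, read 4778, 4955 and 5747 at gd11 and 5929, 4893 and 6336 at pnd2 and did not pass the test (change 0.14 ± 0.19, adjusted p = 0.569), and the stages overlapped. The Kitl mean was 13258 at gd14, so that overlapping ends enclose a higher middle. Foxo3, which keeps primordial follicles dormant, read 1679.5, 2375 and 1803 at gd11 and 5241, 6375 and 3881 at pnd2, a change of 1.38 ± 0.18. Cdkn1b, an inhibitor of the cell cycle, rose by 1.05 ± 0.15, and Pdpk1, the kinase upstream of Akt, by 1.06 ± 0.16. The median of this list, 0.29, was 0.14 with arrays scaled to their medians, when 7 members rose and 1 fell.

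The TGF-beta family was divided. Of 33 members 10 rose (30.3%, beside 26.3% of all genes) and 12 fell (36.4%, beside 20.5%). Without gd11 sample 16, 9 rose and 9 fell. Median scaling gave 9 rises and 15 falls, and the 6 compared arrays alone gave 12 rises and 10 falls. Among the rising ligands and ligand subunits, Bmp6 read 79.4, 103 and 67.6 at gd11 and 575, 629.7 and 487 at pnd2 (change 2.38 ± 0.25) and Inhbb, the beta B subunit of activin and inhibin, rose by 1.52 ± 0.20. Bmp5 read 2155, 3542 and 5449 at gd11 and 441, 465 and 157 at pnd2, a change of -3.31 ± 0.38, and Bmp4 changed by -1.56 ± 0.28. Smad6, which dampens BMP signals, changed by -1.93 ± 0.33 and Id3, an inhibitor of basic helix-loop-helix factors, by -1.82 ± 0.22.

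The Wnt pathway showed 9 rises and 14 falls among 29 members (31% and 48.3%, beside 26.3% and 20.5% of all genes). Without gd11 sample 16 it showed 7 rises and 14 falls. Rspo2, an R-spondin that strengthens Wnt signals, read 303, 224 and 328 at gd11 and 2631, 2167 and 1397 at pnd2, a change of 2.70 ± 0.29. Its relative Rspo3 went the other way: it read 407, 775 and 1193 at gd11 and 63.9, 86.2 and 25.2 at pnd2, a change of -3.14 ± 0.45. Lgr5, a receptor of R-spondins, rose by 2.44 ± 0.24, and Sp5, a target gene of the pathway, by 1.59 ± 0.29. The receptor Fzd2 changed by -2.04 ± 0.21, the secreted inhibitor Sfrp2 by -2.24 ± 0.39 and the Wnt-inactivating enzyme Notum by -1.59 ± 0.27.

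Notch pathway genes fell in 8 of 18 members and rose in 2 (44.4% and 11.1%, beside 20.5% and 26.3% of all genes). The ligand Jag2 read 231, 98.1 and 137 at gd11 and 1197, 1178 and 753 at pnd2, a change of 2.56 ± 0.30, whereas the ligand Dll1 read 1444, 352 and 289 at gd11 and 134, 111 and 138 at pnd2, a change of -1.84 ± 0.38 that was -1.15 without gd11 sample 16. The receptor Notch3 changed by -1.16 ± 0.26. Without gd11 sample 16, 5 of 17 members fell. Among 11 Hedgehog genes 4 fell (36.4%, beside 20.5% of all genes) and 1 rose (9.09%, beside 26.3%). However, none rose with median scaling, without gd11 sample 16 or without gd11 sample 18. The number that fell was 5 without sample 16 and 3 without sample 18. Shh read 1792, 356 and 249 at gd11 and 113, 168 and 132 at pnd2, a change of -1.80 ± 0.44 with gd11 sample 16 and -0.98 without it (adjusted p = 0.00639). Gli3, a factor of the pathway that acts mainly as a repressor, changed by -1.04 ± 0.14 on arrays that did not overlap.

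Retinoic acid, the signal made from vitamin A that promotes entry into meiosis in fetal germ cells, was covered by a list of carriers, enzymes and receptors. Of 14 genes of its pathway 5 fell and 1 rose (35.7% and 7.14%, beside 20.5% and 26.3% of all genes). Crabp2, a carrier protein, read 5297, 2152 and 3870.3 at gd11 and 67.2, 33.7 and 13.4 at pnd2, a change of -5.76 ± 0.38, and the receptor Rarb read 663, 612 and 902 at gd11 and 78.6, 112 and 65.7 at pnd2, a change of -2.70 ± 0.32. The synthetic enzyme Aldh1a2 changed by -0.99 ± 0.24. A second enzyme of the family, Aldh1a1, was the member that rose: it read 741, 698 and 527 at gd11 and 11649, 11164 and 12891 at pnd2, a change of 4.13 ± 0.22 (adjusted p = 6.36e-11).

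Extracellular matrix genes changed in both directions. Among 36 collagens and fibrillar matrix genes 17 rose (47.2%, beside 26.3% of all genes) and 7 fell (19.4%, near 20.5%). Without gd11 sample 16, 16 rose and 8 fell. Col6a1 and Col6a2, chains of the beaded filament collagen VI, rose by 3.48 ± 0.21 and 3.50 ± 0.25. Dcn, the proteoglycan decorin, read 1408, 1624 and 1920.2 at gd11 and 13618, 16591 and 12919 at pnd2, a change of 3.10 ± 0.26, and Ogn, osteoglycin, read 45.8, 13.3 and 77.2 at gd11 and 2244, 1736 and 1733 at pnd2, a change of 4.74 ± 0.38. Col9a1, a collagen chain of cartilage, read 1456, 1182 and 2722 at gd11 and 33.0, 54.0 and 46.2 at pnd2, a change of -4.51 ± 0.32 (-2.81 as the mean of its probe sets), and Col2a1 changed by -2.47 ± 0.32. The large proteoglycan Vcan changed by -2.14 ± 0.36. Col1a1 read 1068, 1921 and 2046 at gd11 and 2947, 2854 and 2052 at pnd2 and did not pass the test (change 0.67 ± 0.32, adjusted p = 0.102), although its arrays did not overlap. Without gd11 sample 16 its change was 0.38 (adjusted p = 0.396).

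Basement membrane genes rose in 11 of 19 members and fell in 1 (57.9% and 5.26%, beside 26.3% and 20.5% of all genes). Col4a4, a type IV collagen chain, read 10.3, 9.03 and 13.8 at gd11 and 882, 953 and 1018 at pnd2, a change of 4.54 ± 0.25 (adjusted p = 9.9e-11). The laminin chain Lama2 rose by 2.38 ± 0.25 and the laminin receptor Dag1 by 1.73 ± 0.16. Agrn, agrin, was the member that fell, by 0.69 ± 0.15. Among 17 markers of surface epithelium and mesothelium 6 rose (35.3%, beside 26.3% of all genes) and 1 fell (5.88%, beside 20.5%). Without gd11 sample 16, 7 rose and 2 fell. Against a threshold of 2-fold none rose or fell. Krt19 read 145, 267 and 135 at gd11 and 499, 1256 and 585 at pnd2, a change of 1.86 ± 0.40, and Muc16 read 68.0, 51.8 and 105 at gd11 and 224, 337 and 291 at pnd2, a change of 1.59 ± 0.24.

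Of 20 stromal and theca precursor genes 5 rose and 5 fell, each 25%, which is near the shares of all genes (26.3% and 20.5%). With median scaling, and also without gd11 sample 16, 4 rose and 7 fell. Ogn, Dcn, Lum and Col3a1, which rose, encode matrix proteins, and the members that fell include the orphan nuclear receptor Nr2f1 and the homeobox factors Meis1 and Meis2. Nr2f1 read 5162, 4704 and 6589 at gd11 and 256, 486 and 202 at pnd2, a change of -4.06 ± 0.35. Meis2 read 8495, 12036 and 13407 at gd11 and 1185, 1194 and 790.4 at pnd2, a change of -3.38 ± 0.26. Both factors are also expressed in mesenchyme outside the gonad.

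Genes of antigen presentation and complement rose in 15 of 18 members, and none fell, with a median of 1.45. Cd55, which shields cells from complement, read 76.6, 218 and 222 at gd11 and 1695, 1282 and 1164 at pnd2, a change of 2.88 ± 0.38. C2, a component of complement, rose by 1.94 ± 0.24 on 3 of 3 tested probe sets. H2-Aa, a class II chain of antigen-presenting cells, read 44.2, 23.9 and 5.82 at gd11 and 244, 784 and 215 at pnd2, a change of 2.83 ± 0.46, with pnd2 sample 2 above the others. None of 17 markers of macrophages and leukocytes rose and 3 fell (17.6%, beside 20.5% of all genes), and 1 fell without gd11 sample 18 or without gd11 sample 19. The summed signal of the list was 6848 to 9490 at gd11 and 5349 to 7340 at pnd2. Pf4, the platelet chemokine, fell most, by 1.23 ± 0.24, and with gd11 sample 19 alone as gd11 it gave -0.93 (adjusted p = 0.0525) and none of the list passed the test. The part of immune cells in the rise of antigen presentation genes was not tested beyond these values.

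**Figure D3:**
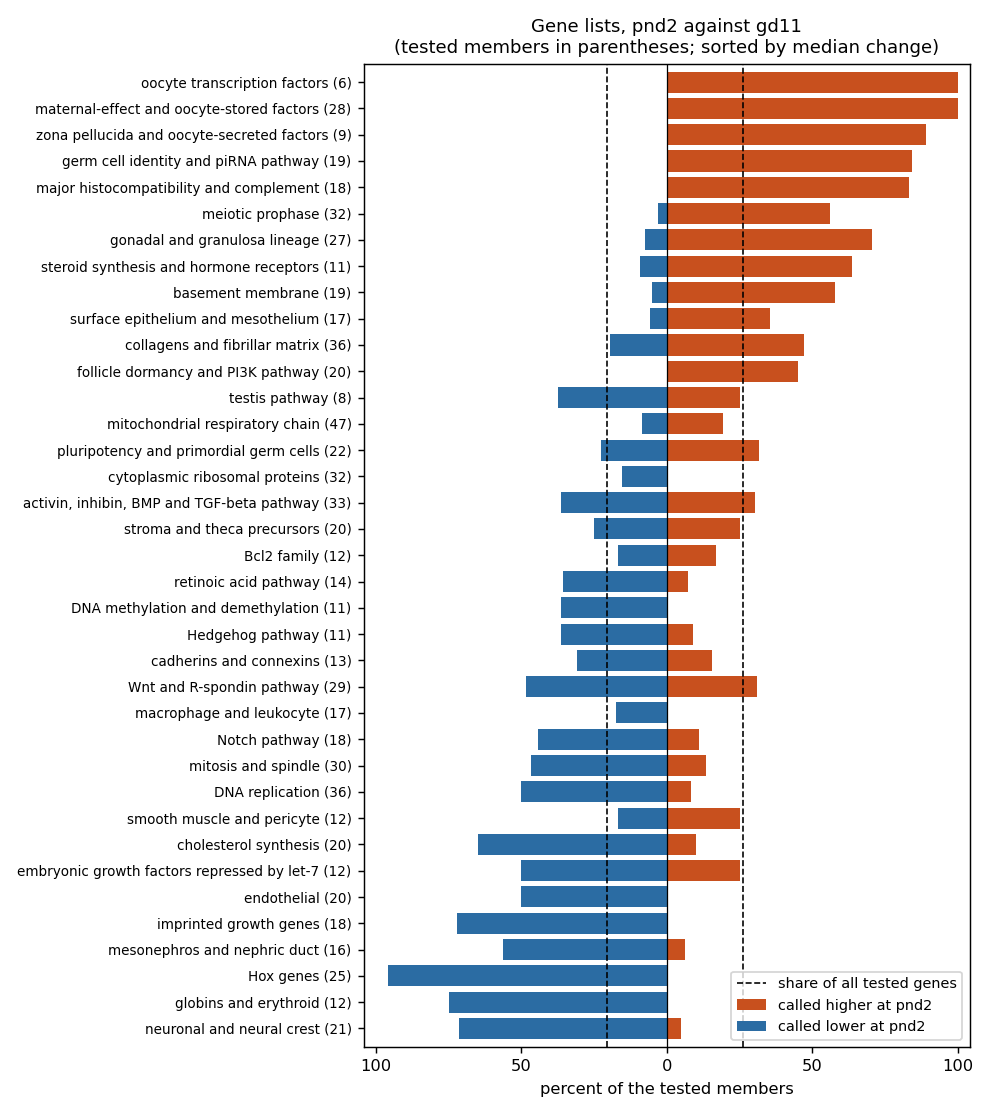
Percent of the tested members of 37 gene lists that were called higher (orange, to the right) or lower (blue, to the left) at pnd2 than at gd11, sorted by median change, with dashed lines at 26.3% and 20.5%, the shares of all tested genes. Oocyte and germ cell lists lie at the top and neuronal, globin, Hox and mesonephros lists at the bottom.

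The largest falls were of embryonic globins, which primitive red cells carry before definitive red cells replace them. Hbb-bh1, a second embryonic beta globin, read 17515, 16185 and 13259 at gd11 and 37.4, 7.04 and 33.6 at pnd2, a change of -8.14 ± 0.36. Hba-x, the embryonic alpha globin zeta, read 6381, 7485 and 3736 at gd11 and 4.10, 6.90 and 3.31 at pnd2, a change of -7.31 ± 0.28. Hbb-y kept its level until gd14, with means of 32748 at gd14, 2508 at gd16 and 299.7 at gd18, when Hbb-bh1 was already at 245 at gd14. Of 12 tested erythroid genes 9 fell and none rose. Slc4a1, the anion exchanger of the red cell membrane, changed by -4.60 ± 0.51 and Hemgn, a nuclear protein of blood precursors, by -5.44 ± 0.78. The summed signal of the list was 55238 to 67324 at gd11 and 2092 to 2844 at pnd2. The part of blood in the dissected tissue was not tested.

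The promoter windows of Hbb-y (chr7:103853158-103853457, minus strand) and Hba-x (chr11:32276350-32276649, plus strand) are shown as the genes of this group with a RefSeq window and the largest falls. Capitals mark GATAA, the core that GATA factors bind, CACCC, the core of Klf1 sites, CCAAT and TATAAA, each on either strand, which are in 25.4, 57.5, 37.4 and 13.6% of all windows. The letters GATAA were in 8 of 10 erythroid genes with a window, beside 19.5% of tested genes, and CACCC in 9 of 10, beside 66.9%.
Hbb-y: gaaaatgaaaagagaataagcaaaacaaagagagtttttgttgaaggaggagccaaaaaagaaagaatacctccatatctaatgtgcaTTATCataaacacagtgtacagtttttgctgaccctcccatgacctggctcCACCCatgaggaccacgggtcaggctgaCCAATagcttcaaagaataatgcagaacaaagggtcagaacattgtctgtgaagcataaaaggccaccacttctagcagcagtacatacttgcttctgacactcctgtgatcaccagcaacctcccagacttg
Hba-x: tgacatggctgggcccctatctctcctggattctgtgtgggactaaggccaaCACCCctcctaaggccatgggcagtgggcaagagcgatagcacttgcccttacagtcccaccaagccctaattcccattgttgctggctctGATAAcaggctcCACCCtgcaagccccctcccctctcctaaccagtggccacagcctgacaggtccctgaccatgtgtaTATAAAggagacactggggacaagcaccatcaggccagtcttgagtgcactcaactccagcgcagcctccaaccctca

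Hox genes, which set position along the body axis, fell almost throughout. Of 25 tested members 24 fell and none rose, with a median of -1.95, and 24 of 33 fell without the filter, with 1 rise. Hoxa9 read 13275, 5962 and 9714 at gd11 and 518, 763 and 520.5 at pnd2, a change of -3.89 ± 0.40. Hoxa10 read 1417, 951 and 1324 at gd11 and 29.8, 45.9 and 40.4 at pnd2, a change of -4.16 ± 0.45. Hoxb5 changed by -3.96 ± 0.52 and Hoxc10 by -3.46 ± 0.41, on arrays of the stages that did not overlap. With gd11 sample 19 alone as gd11, 21 of 24 fell.

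Genes of the mesonephros and its duct were mostly lower: 9 of 16 tested members fell and 1 rose, with a median of -1.52. Foxd1, a forkhead factor of renal stroma, read 1569, 1419 and 2877 at gd11 and 1.90, 2.57 and 1.45 at pnd2, a change of -5.84 ± 0.33 (adjusted p = 1.77e-10). The duct genes Wnt9b, Gata3 and Lhx1 were near the floor at pnd2. Lhx1 read 781, 115 and 123 at gd11 and 1.69, 5.19 and 2.56 at pnd2, a change of -2.95 ± 0.47 that was -2.14 without sample 16 (adjusted p = 6.7e-05). Ret, the receptor of the ureteric bud, changed by -2.92 ± 0.42 and the tight junction gene Cldn8 by -2.86 ± 0.41. Pax8 read 129, 117 and 96.9 at gd11 and 75.8, 216 and 67.1 at pnd2 and did not pass the test (adjusted p = 0.869). Umod, known from the kidney tubule, was the member that rose, by 1.92 ± 0.32. The gd11 library labelled gonad had the highest sum of these genes. The summed signal of the 16 members was 7407 and 7333 on samples 16 and 18 and 9219 on sample 19, beside 1146 to 2112 at pnd2. Foxd1 alone made up 1569 and 1419 of the sums of samples 16 and 18 and 2877 of that of sample 19. Sample 19 had the lowest gd11 signal for 4 of the members. At gd12, labelled ovary, the sums were 3984 to 6835. The part of mesonephric tissue in the falls of other groups was not tested.

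Neuronal and neural crest genes fell in 15 of 21 members and rose in 1, and the size of the fall rested in part on 1 array. Their summed signal was 50292 on gd11 sample 16, 11197 and 13797 on the other gd11 arrays and 3426 to 4573 at pnd2. Of the members, 12 were over 2-fold higher on sample 16 than on both other gd11 arrays. Stmn2, a microtubule regulator of growing axons, read 7965, 227 and 291 at gd11 and 28.6, 69.0 and 17.0 at pnd2, a change of -3.73 ± 0.96 that was -2.13 without sample 16 (adjusted p = 0.0221) and -2.29 with sample 19 alone as gd11 (adjusted p = 0.0739). Nefl, the light neurofilament chain, read 7184, 1407 and 1366 at gd11 and 134, 61.9 and 14.8 at pnd2, a change of -4.78 ± 0.72 and -4.00 without sample 16 (adjusted p = 0.000237). Without that array 13 of 19 members fell, with a median of -1.41 in place of -2.36. Miat, a long noncoding RNA of neurons, read 13521, 931 and 774 at gd11 and 96.8, 54.4 and 35.2 at pnd2, a change of -4.61 ± 0.73 and -3.29 without sample 16 (adjusted p = 2.55e-05). The part of neural tissue on sample 16 in other falls was not tested beyond the values without it. Th, which makes catecholamines, was the member that rose: it read 121, 126 and 319 at gd11 and 1445, 1029 and 739.7 at pnd2, a change of 2.39 ± 0.56, which was 1.61 with sample 19 alone as gd11 (adjusted p = 0.147).

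**Figure D4:**
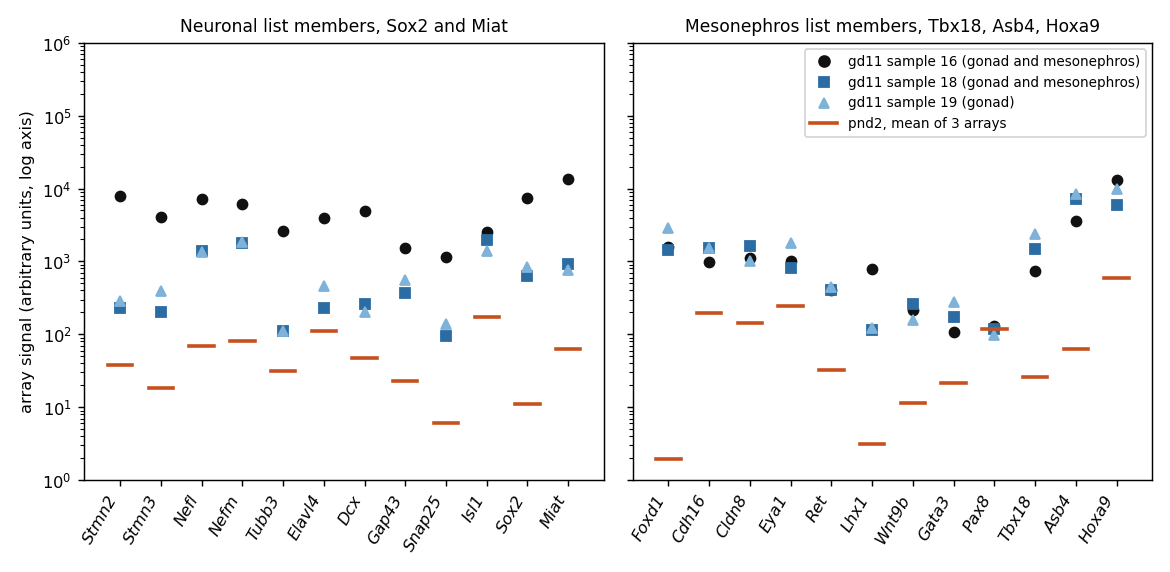
Array signal (log axis) of neuronal genes with Sox2 and Miat (left) and of mesonephros genes with Tbx18, Asb4 and Hoxa9 (right) on each gd11 array, with the pnd2 mean as an orange bar. Sample 16 (black circles) stands above the other gd11 arrays for most of the left genes, and sample 19, labelled gonad, lies among or above the others for most of the right genes.

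Vascular genes fell in part. Of 20 endothelial markers 10 fell (50%, beside 20.5% of all genes) and none rose, with a median of -0.80. Without gd11 sample 16, 12 fell, and without sample 18 or without sample 19, 8 fell. Against a threshold of 2-fold, 1 fell. Plvap, of fenestrated vessels, read 453, 875 and 847 at gd11 and 97.0, 106 and 51.5 at pnd2, a change of -2.69 ± 0.27. Emcn and Mmrn2 changed by -1.57 ± 0.26 and -1.54 ± 0.30, and Aplnr, the apelin receptor, by -1.54 ± 0.33. Smooth muscle and pericyte genes gave 3 rises and 2 falls among 12 members (25% and 16.7%). Those shares are below the 26.3% and 20.5% of all genes. Without gd11 sample 16 these genes gave 1 rise and 6 falls. Median scaling gave 3 rises and 5 falls. Their summed signal differed among the gd11 arrays, at 8004, 14753 and 22405. Mylk, the myosin light chain kinase, rose by 2.05 ± 0.30.

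Imprinted growth genes, expressed from 1 parental allele, fell in 13 of 18 members (72.2%, beside 20.5% of all genes), and none rose. Asb4 read 3606, 7184 and 8304 at gd11 and 62.6, 60.8 and 68.4 at pnd2, a change of -5.99 ± 0.28. Igf2, the fetal growth factor, read 10082, 15597 and 16302 at gd11 and 2464, 3011 and 2172 at pnd2, a change of -2.42 ± 0.18 (adjusted p = 4.78e-09), and its mean was 10948 at gd16 and 8026 at gd18. Cdkn1c, an inhibitor of the cell cycle, changed by -1.98 ± 0.16, and the amino acid transporter Slc38a4 by -2.34 ± 0.32.

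Embryonic growth genes known as targets of the let-7 microRNA divided. Of 12 members 6 fell (50%, beside 20.5% of all genes) and 3 rose (25%, beside 26.3%). Hmga2, a chromatin protein of growing embryonic tissue, read 15721, 20703 and 21051 at gd11 and 1242, 1137 and 1439.8 at pnd2, a change of -3.87 ± 0.19 (adjusted p = 2.44e-11) on 4 of 4 probe sets. Igf2bp1, an RNA-binding protein that stabilises growth factor mRNAs, read 3044, 2052 and 1447 at gd11 and 23.6, 8.78 and 45.7 at pnd2, a change of -5.26 ± 0.27, and its paralogue Igf2bp3 changed by -2.45 ± 0.12. Lin28b, a relative of Lin28a, read 63.9, 6.43 and 23.1 at gd11 and 42.6, 31.4 and 70.7 at pnd2 and did not pass the test (adjusted p = 0.351). The risers Trim71, Lin28a and Nr6a1 are also on the pluripotency list.

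Proliferation genes leaned downward by small amounts. Of 30 mitotic genes 14 fell (46.7%) and 4 rose (13.3%), and of 36 replication genes 18 fell (50%) and 3 rose (8.33%). Of all genes 20.5% fell and 26.3% rose. Rrm2, the ribonucleotide reductase subunit that limits nucleotide supply, read 11669.7, 9688 and 10006 at gd11 and 2987, 2531 and 3145 at pnd2, a change of -1.85 ± 0.13. Top2a, the topoisomerase of dividing cells, read 7264, 6819 and 7538 at gd11 and 2637, 2085 and 2642 at pnd2, a change of -1.55 ± 0.14. Cenpa changed by -1.49 ± 0.20, Plk1 by -1.30 ± 0.20 and Cdc6, which licenses replication origins, by -1.45 ± 0.23. Ect2 and Ube2c rose, by 0.88 ± 0.15 and 0.79 ± 0.18. The medians of -0.40 and -0.43 were -0.56 and -0.58 with arrays scaled to their medians. The mitotic list was lower still at gd18, with a median of -1.07.

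Cholesterol synthesis genes fell in 13 of 20 members and rose in 2 (65% and 10%, beside 20.5% and 26.3% of all genes). Without gd11 sample 16, 10 fell and 2 rose. Their summed signal was 57713 on gd11 sample 16 and 41946 and 44054 on samples 18 and 19. Idi1 read 6569.6, 2779.7 and 2794 at gd11 and 1035, 964 and 1044 at pnd2, a change of -1.84 ± 0.25, Cyp51 changed by -1.27 ± 0.24, and Srebf2, the transcription factor that drives the pathway, by -1.17 ± 0.18. Fdft1, which commits the pathway to sterols, rose by 0.90 ± 0.17. Respiratory chain genes changed in few members: 9 of 47 rose (19.1%, beside 26.3% of all genes) and 4 fell (8.51%, beside 20.5%). Ndufv1, a subunit of complex I, rose by 0.88 ± 0.15, and the electron carrier Cycs changed by -0.94 ± 0.13. With arrays scaled to their medians the same list gave 5 rises and 8 falls, and without gd11 sample 16 it gave 5 rises and 4 falls. Cytoplasmic ribosomal proteins fell in 5 of 32 members and rose in none, and Rpl14 changed by -0.93 ± 0.17. The share that fell, 15.6%, is below the 20.5% of all genes. The balance depended on the scaling: median scaling gave 0 rises and 9 falls and quantile normalization 4 rises and 3 falls. Without gd11 sample 16 or without gd11 sample 18, 3 fell.

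Of 8 testis pathway genes 3 fell (37.5%, beside 20.5% of all genes) and 2 rose (25%, near 26.3%). With median scaling, or without gd11 sample 16 or 19, 1 rose. Sox9, the Sertoli cell factor, read 1224, 452 and 691 at gd11 and 47.8, 75.3 and 33.0 at pnd2. Its change was -3.22 ± 0.36 (-2.01 as the mean of its probe sets). Dmrt1 changed by -2.04 ± 0.34, and Ptgds, which makes prostaglandin D, rose by 2.84 ± 0.38. DNA methylation genes fell in 4 of 11 (36.4%, beside 20.5% of all genes) and rose in none, with a median of -0.24. With median scaling 5 fell, with a median of -0.39. Tet1 changed by -0.72 ± 0.15, with 1 of 3 tested probe sets called lower, and Dnmt3a by -0.61 ± 0.12, with 3 of 5. In the Bcl2 family 2 of 12 rose and 2 fell, each 16.7%, which is below the shares of all genes (26.3% and 20.5%). Bcl2l10, an oocyte member, read 28.3, 5.56 and 18.6 at gd11 and 1492, 1337 and 636 at pnd2, a change of 4.55 ± 0.39, and the death-promoting Bcl2l11 changed by -1.26 ± 0.16. Cadherins, catenins, connexins and tight junction genes gave 2 rises and 4 falls among 13 (15.4% and 30.8%, beside 26.3% and 20.5% of all genes). Gja4, the connexin of oocyte gap junctions, rose by 1.90 ± 0.27, and N-cadherin, Cdh2, changed by -1.33 ± 0.19.

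Large changes also occurred outside the lists. Trp63, the p63 factor that guards oocytes against DNA damage, read 59.6, 29.4 and 72.4 at gd11 and 6008, 4946 and 5447 at pnd2, a change of 6.05 ± 0.26, and its mean was still 96.0 at gd16 and 1151 at gd18. Slc26a7, an anion transporter, read 44.7, 74.9 and 154 at gd11 and 6676, 6669.7 and 11056 at pnd2, a change of 6.12 ± 0.33 (3.96 as the mean of its probe sets). Dcpp1 read 1.58, 5.48 and 1.24 at gd11 and 2908, 2215 and 4213 at pnd2 and Cst12, of the cystatin family, read 26.3, 15.4 and 31.9 at gd11 and 3489, 4495 and 3878 at pnd2, each near the floor at gd11. Bzw2 read 241, 292 and 441 at gd11 and 34331, 37669 and 41747 at pnd2 on its probe set with the highest mean, a change of 6.77 ± 0.38, but its other 2 probe sets fell by 1.15 ± 0.21 and 1.16 ± 0.24, and the mean of all 3 gave 1.49. The level of Bzw2 as a gene is therefore uncertain. Among falls, Tbx18, a T-box factor of urogenital mesenchyme, read 742, 1493 and 2414 at gd11 and 20.0, 48.2 and 10.5 at pnd2, a change of -4.69 ± 0.39, and Fndc3c1 read 3251, 4080.2 and 3099 at gd11 and 55.8, 103 and 173 at pnd2, a change of -4.71 ± 0.36.

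The arrays between the ends show when the net change was gained. For genes higher at pnd2, the median share of the net log2 change present was 17.5% at gd12, 45.0% at gd14, 63.4% at gd16 and 74.9% at gd18. For genes lower at pnd2 it was 22.6, 59.4, 63.6 and 73.3%. Among genes that moved by over 3, the 71 falls had reached 73.3% by gd14 and the 197 rises 30.0%. These genes were chosen by their end points, so the shares are a description without a test. Not all genes moved in 1 direction throughout: 930 of the 3309 risers were higher at gd18 than at pnd2. The gene groups differed in timing. The zona list stood at a median of 0.46 and the maternal-effect list at 0.74 at gd18, and at 3.46 and 4.04 at pnd2. The oocyte transcription factors had reached 2.64 at gd14, and the granulosa list 0.87 at gd12. The mesonephros list had its lowest median, -1.80, at gd14, and the erythroid list rose to 1.01 at gd16 before its final -2.04.

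**Figure D5:**
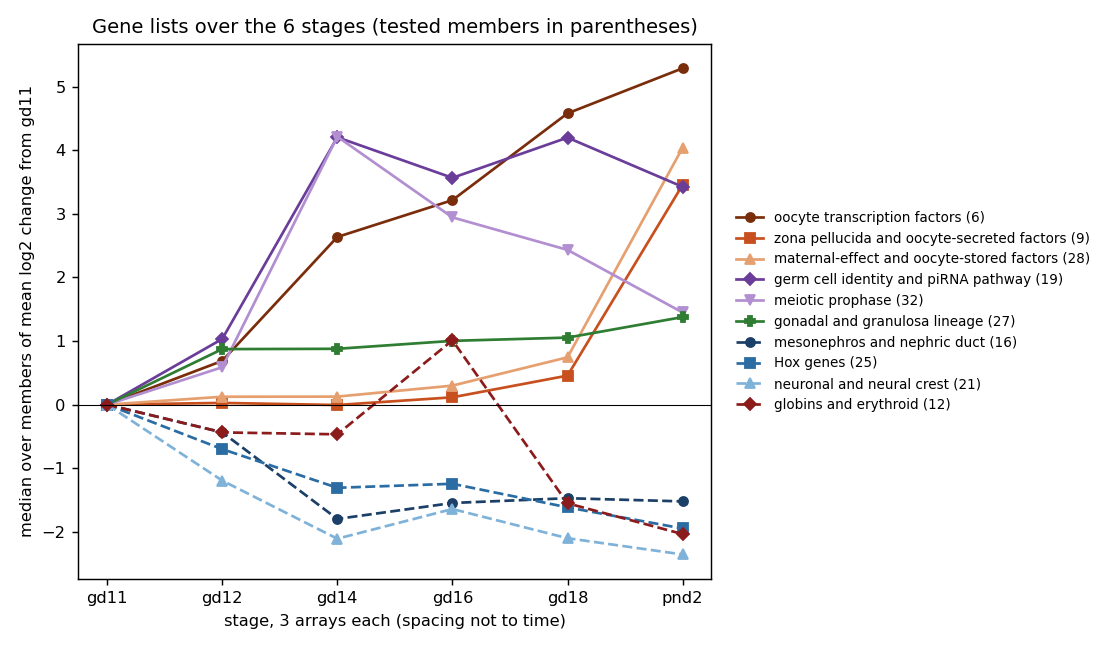
Median over the tested members of 10 gene lists of the mean log2 change from gd11 (vertical axis) at each stage (horizontal axis, 3 arrays each, spacing not to time). The zona and maternal-effect lists stay near 0 until gd18 and rise to 3.46 and 4.04 at pnd2, while the meiotic list peaks at 4.22 at gd14.

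X-linked genes were called higher in 32.1% of 446 and lower in 23.1%, with a median change of 0.10. Autosomal genes were called higher in 26.1% of 12102 and lower in 20.4%, with a median of 0.04. No test of this difference was made.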

How the data were processed

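Total RNA was amplified in 2 rounds and hybridized to Affymetrix Mouse430_2 arrays, per the labels. The authors deposited linear signal intensities. GCOS is the software that the submitters' processing notes name, without version or settings. Every array has a 2%-trimmed mean of 500, and values were used as deposited. Genes were named from GEO's platform annotation: of 45101 probe sets 34945 had 1 symbol, 932 several and 9160 none, and 64 were controls.

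Probe sets with a mean above 116.05, the median of all values, in at least 1 stage were tested. Log2(signal + 31) of the 18 ovary arrays was fitted with limma 3.58.1 in R 4.3.3, with 1 term a stage and a mean-variance trend, and p-values were adjusted over 26431 probe sets by Benjamini-Hochberg. A gene is its tested probe set with the highest mean. The text names the 15 largest rises and falls, up to 4 called members of each of 37 lists in each direction, and a panel of genes. The members and lists were chosen with earlier results of these data known. Figures were drawn with matplotlib 3.10.9. The fit was tested on simulated data: of 100 probe sets changed by 1 on the log2 scale 53 were called, and of 100 changed by 2, 91. Only these were changed among 24847 tested probe sets, with independent normal noise, whereas 42% were called in the data. The adjustment of p-values is stricter when few probe sets change, so the simulated shares do not give the sensitivity of this comparison. The number of arrays limits the precision. 20 alternatives were tried: other pseudocounts, scalings, filters, array sets and probe set rules, and leaving out each array.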

Additional observations from a re-analysis of the deposited data

How the results depend on the processing

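Among 20 alternatives, the counts of called probe sets and genes stayed within 1.5 times, except under those named next. With a filter at the 75th percentile, 7355 probe sets were called, 3676 of them higher. With gd11 sample 19 alone as gd11, which assumes that the lone sample varies like the other groups, 6826 probe sets were called, 3851 higher and 2975 lower, and 3852 genes, 1579 of them lower. Against a threshold of 2-fold, 1459 probe sets were called, 1023 higher and 436 lower, and 908 genes, 663 higher and 245 lower. Leaving out 1 array gave 9634 to 9954 called probe sets. Averaging gd11 samples 18 and 19, which shared a dam, gave 9731 called probe sets. Notch4 turned to 0.083 (adjusted p = 0.852) with no filter, when another probe set represented the gene. Of 208 named genes with a call, 106 kept it under each alternative that tested them. No paired analysis was possible because the sample numbers are not shared between stages. Signal near the floor limits the size of changes that can be read for genes absent at 1 end, and the ratio of low signals is compressed by the added 31.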
